A study of Bos taurus with 138 samples.

Results

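The transcriptome of whole bovine embryos was compared between the 2-cell and the 8-cell stage, the interval in which the embryo of cattle starts large-scale transcription of its own genome. The members were the 3 whole-embryo libraries labelled 2-cell and the 3 labelled 8-cell, 6 of the 138 libraries of the series, and each of the 16706 gene symbols in the count table was followed through them. Of these symbols, 12175 passed a filter on low counts and were tested. The series profiled 6 stages, from germinal vesicle (GV) and metaphase II (MII) oocytes to blastocysts, as 18 transcriptomes (3 per stage) and 120 libraries from 10 sucrose gradient fractions.

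Both groups were pools of embryos produced in vitro. Oocytes from slaughterhouse ovaries were matured, fertilised with semen of 1 Holstein bull and cultured, and embryos of both stages were treated with cycloheximide and freed of the zona pellucida before lysis. The groups therefore differed in stage only, as far as the labels and methods state, and neither source gives the sex of the embryos or ties the letters A, B and C to separate animals. The p-values below measure the spread between these 6 libraries. All values are shares of the RNA counted in a library. The libraries were primed on poly(A) tails. A change in tail length and a change in mRNA amount cannot be told apart here, for rises or for falls. The stage names give the number of cells per embryo. A share does not show the amount of RNA per embryo or per cell, and neither amount was measured here.

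A fertilised egg begins development on transcripts and proteins stored by the growing oocyte while its genome is nearly silent. Maternal transcripts are then deadenylated and degraded, and transcription factors, some of them translated from stored mRNA, open the embryonic genome in a small early and a large later wave, which in cattle centres on the 8-cell stage. The genes that come on include the machinery of transcription, splicing, ribosome assembly and respiration, together with the factors that later mark the pluripotent and trophectoderm lineages.

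The 6 libraries held between 9524896 and 11812567 counts. Pearson correlations of log2 CPM (counts scaled to 1 library size with trimmed mean of M-values, TMM, factors) ran from 0.981 to 0.987 among 2-cell libraries and from 0.516 to 0.604 between stages. Among 8-cell libraries, B and C correlated at 0.972, whereas A correlated with them at 0.940 and 0.948. Replicate A of the 8-cell group also held more RNA of connective tissue genes than B and C. On a scale common to the 18 transcriptomes, the 31 genes in the table of a list of 32 fibroblast and stromal markers summed to 19288, 3662 and 3290 CPM in 8-cell replicates A, B and C, and to 134, 139 and 130 CPM in the 2-cell libraries. Levels below are in CPM on the scale of the 6 libraries, in the order A, B and C, with the 2-cell before the 8-cell group. CPM are not divided by transcript length and are not compared between genes. Every gene said to have risen or fallen was also called in that direction when 8-cell replicate A was left out, except where its loss is stated.

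Between the stages, 4347 genes rose and 3740 fell, under an adjusted p below 0.05 (edgeR's quasi-likelihood test with Benjamini-Hochberg adjustment) and a fold change above 2. These are 35.7% and 30.7% of the genes tested, and they are the background against which each list below is read. The median log2 fold change over all tested genes was 0.097 with TMM scaling and −0.057 with library totals alone. Rises were larger than falls, with a median of 7.12-fold against 4.88-fold, and 704 genes rose more than 64-fold against 36 that fell as much. The filter keeps a gene that is expressed in only 1 of the stages, and 1440 of the rising genes had a mean under 1 CPM in 2-cell embryos, as had 747 of the falling genes in 8-cell embryos. Without 8-cell replicate A, 12525 genes were tested, 4371 rose (34.9%) and 4037 fell (32.2%). Of the original calls, 4136 rises and 3620 falls were kept and 0 turned direction.

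**Figure D1:**
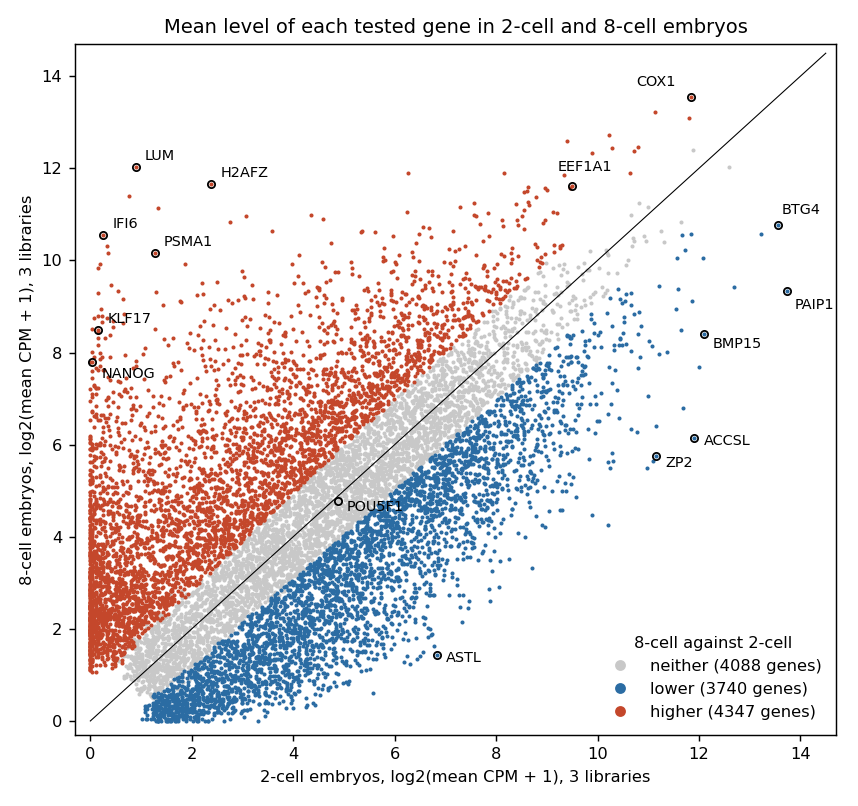
Mean level of the 12175 tested genes in 2-cell (x axis) and 8-cell (y axis) embryos as log2(mean CPM + 1), with 1 point per gene coloured by its call and a line of equal level. The 4347 rising genes reach from genes without counts in 2-cell embryos to the abundant COX1, and stored oocyte transcripts such as PAIP1, BTG4 and ACCSL lie among the 3740 falling genes.

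The rising genes with the largest fold change, at least 50 CPM and groups that did not overlap were H2BC11, BHLHE40, ACTG2, RARRES2, TRAV16, POSTN, IFI6, ZFP42, BECN2 and VIM. H2BC11, a replication-type histone H2B gene, was at 0, 0 and 0 CPM in the 2-cell libraries and at 117, 336 and 206 CPM in the 8-cell libraries. With 0 counts in every 2-cell library it was at least 2554-fold higher, measured against a floor of 3 counts over that group, and it was also past the test without 8-cell replicate A (adjusted p = 1e-11). TRAV16, a T cell receptor variable segment gene, went from 0, 0 and 0 CPM to 69.4, 103 and 102 CPM, at least 1074-fold higher. Neither gene leaned on 8-cell replicate A, in which both were at their lowest 8-cell level.

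ZFP42 (REX1), a zinc finger protein known from pluripotent cells, was at 0, 0 and 0.0828 CPM in 2-cell and at 220.0, 305 and 250.4 CPM in 8-cell embryos. Its 2-cell libraries held 1 count in all, and the ratio of the groups was 9133 (95% exact Poisson interval 1639 to 360728). BECN2, a relative of the autophagy protein beclin, was at 0.164, 0.178 and 0.0828 against 919, 1404 and 590.3 CPM, a log2 fold change of 12.64 ± 0.53 (SE; adjusted p = 4.6e-09) and 12.64 without 8-cell replicate A. In both genes every 8-cell library stood far above the highest 2-cell library.

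The other genes of this group were highest in 8-cell replicate A. POSTN, which encodes the matrix protein periostin, was at 0.246, 0 and 0.0828 CPM in 2-cell libraries and at 2198, 151 and 373 CPM in 8-cell libraries, and its log2 fold change fell from 12.84 to 11.01 without 8-cell replicate A. VIM, the intermediate filament vimentin, was at 885, 167 and 227 CPM, RARRES2, which encodes the chemoattractant chemerin, at 670.0, 160.0 and 260.3 CPM, and ACTG2, a smooth muscle actin, at 243, 41.4 and 83.3 CPM in the 8-cell libraries. BHLHE40, a transcriptional repressor, was at 308, 45.6 and 86.4 CPM there. The interferon-induced IFI6 was closer between replicates, at 0.164, 0.178 and 0.248 CPM in 2-cell and 2197, 1259 and 1058 CPM in 8-cell libraries. ACTG2 and BHLHE40 had 0 counts in the 2-cell libraries and were at least 1512-fold and 1820-fold higher, RARRES2 had 1 count and VIM 2. Without 8-cell replicate A all 6 were still past the test, with fitted log2 fold changes of 11.47 for VIM, 12.34 for RARRES2, 12.37 for ACTG2, 12.45 for BHLHE40 and 12.41 for IFI6. The fitted values of genes with so few 2-cell counts depend on the prior count of the fit and are no bounds.

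The largest gains in CPM belonged to 4 genes of the mitochondrial genome and to UBB, a gene for ubiquitin. COX1, a subunit of cytochrome oxidase, rose from 3417, 3856 and 3705 CPM to 12340, 12233 and 11498 CPM (3.29-fold, adjusted p = 3e-05). ND4, a subunit of complex I, rose 9.14-fold, ATP6, of the ATP synthase, 5.72-fold, and COX3 4.25-fold. UBB rose from 4091, 3677 and 2980 CPM to 7793, 9591 and 8792 CPM. On the scale common to the 18 transcriptomes its mean was higher in oocytes, at 17804 CPM in GV and 15843 CPM in MII, than at the 8-cell stage (7514 CPM). These 5 genes were past the test without 8-cell replicate A, at 3.16-fold for COX1, 10.0-fold for ND4, 6.41-fold for ATP6, 4.7-fold for COX3 and 2.5-fold for UBB.

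**Figure D2:**
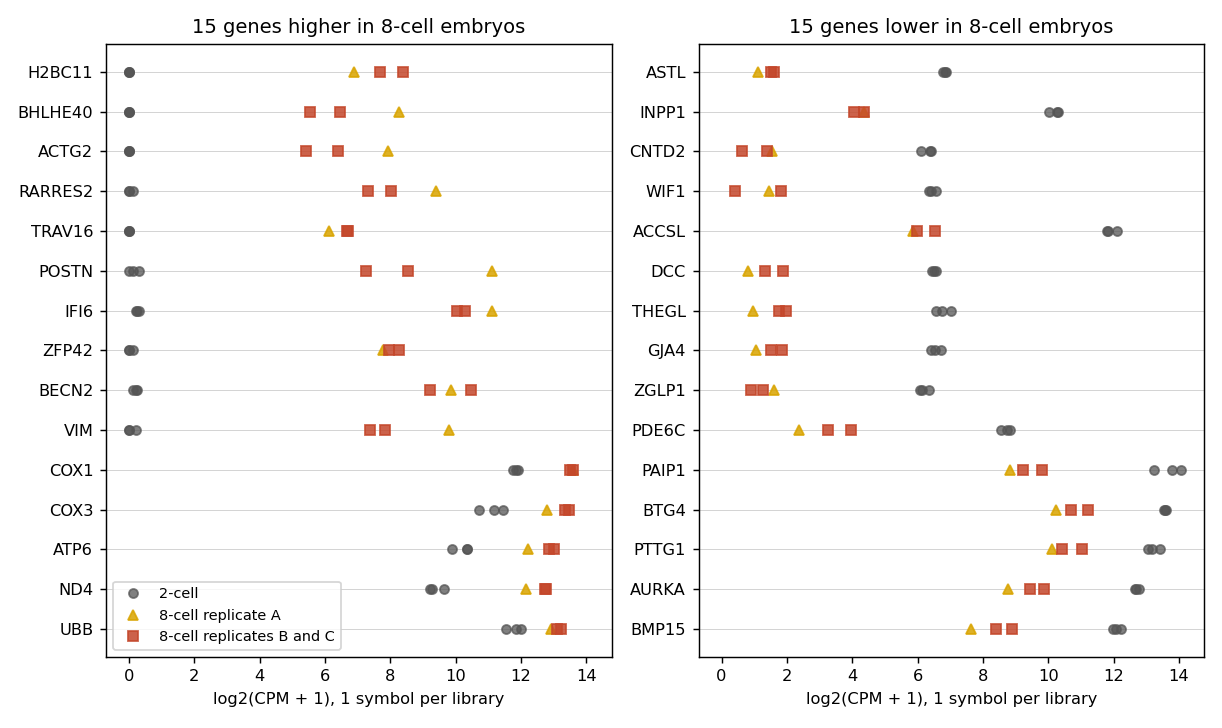
Level of the 30 genes named by size of change, as log2(CPM + 1) on the x axis, with 1 symbol for each of the 6 libraries. Grey circles are 2-cell libraries and triangles 8-cell replicate A. Groups without overlap were required of the 10 genes per direction chosen by fold change. The 5 per direction chosen by CPM difference do not overlap either, and groups overlapped in 2666 of the 12175 tested genes. Among the 10 rising genes chosen by fold change, replicate A is the highest 8-cell library for POSTN, VIM, RARRES2, ACTG2, BHLHE40 and IFI6.

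Factors linked to genome activation rose in more cases than they fell, and the rises were larger. The list held 43 symbols, of which 28 were tested: 16 rose, 6 fell and 6 did not pass. The median log2 fold change was 2.76, and 16 and 5 of the 28 rose and fell without 8-cell replicate A. KLF17, a Krüppel-like factor, was at 0.0819, 0.266 and 0 CPM in 2-cell and at 228, 339 and 511 CPM in 8-cell embryos, a log2 fold change of 11.50 ± 0.58 (SE; adjusted p = 1.4e-08; 11.71 without 8-cell replicate A). TFAP2C, an AP-2 factor of trophoblast and germ cells, was at 0.0819, 0 and 0 against 87.8, 190.2 and 129 CPM. The chromatin-bound pair DPPA2 and DPPA4, known in the mouse as activators of early embryonic genes, went from 0, 0.178 and 0.166 to 100.2, 189 and 160.1 CPM and from 1.23, 2.31 and 0.993 to 61.8, 127 and 104 CPM. In each of these 4 genes the 8-cell libraries lay far above the 2-cell libraries and replicate A was the lowest of the 3.

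ZSCAN4, a marker of the earliest transcription in mouse and human embryos, already had 0, 0.355 and 1.99 CPM in the 2-cell libraries and reached 26.8, 80.6 and 34.3 CPM at the 8-cell stage. KLF4 rose 52.5-fold, KLF5 16-fold, NR5A2, an orphan nuclear receptor, 22.3-fold, and YY1 10.3-fold. The trimeric factor NF-Y was split: its subunit NFYA rose from a mean of 7.53 to 55.3 CPM, NFYC fell from 149 to 29 CPM and NFYB, at means of 214 and 145 CPM, stayed under the fold limit (adjusted p = 0.029). All of these were called alike without 8-cell replicate A. Falling members were TBPL2, the oocyte form of the TATA-binding protein (54.5 to 1.75 CPM), DPPA3 (4306 to 1055 CPM), GATA3 (33.8 to 4.04 CPM) and ELF3 (17.5 to 2.43 CPM), and TBP itself fell from 84.7 to 40.3 CPM, a call lost to the fold limit without 8-cell replicate A (log2 fold change −0.95, adjusted p = 0.0018). OTX2, PAF1, KDM4A, CTCF and SMARCA4 did not pass. Symbols of the list that the table does not pair with values, among them DUXA and LEUTX, were not analysed here.

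Pluripotency and lineage factors parted in the same way. Of 23 listed, 15 were tested: 10 rose, 4 fell and 1 did not pass, with a median log2 fold change of 5.47. NANOG, a core pluripotency factor, was at 0, 0.0888 and 0 CPM in 2-cell and 141, 266 and 258 CPM in 8-cell embryos. Its 2-cell libraries held 1 count in all, a ratio of 7763 (95% exact Poisson interval 1393 to 306629), and it was past the test without 8-cell replicate A (adjusted p = 8.5e-13). ESRRB, a nuclear receptor of naive pluripotent cells, rose from a mean of 0.0825 to 51.5 CPM, PRDM14 from 0.451 to 60.8 CPM, and TEAD4, which acts upstream of trophectoderm fate, from 0.0276 to 20.2 CPM. GATA6, of primitive endoderm, was at 8.36, 5.32 and 9.94 CPM in the 8-cell libraries with 1 count in the 2-cell libraries.

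POU5F1 (OCT4) showed no such rise, with 26.3, 30.0 and 28.9 CPM in 2-cell and 14.6, 26.5 and 38.6 CPM in 8-cell libraries, a log2 fold change of −0.10 ± 0.33 (SE; adjusted p = 0.8). Its groups overlapped. CDX2, the trophectoderm factor, fell from 3.44, 7.81 and 11.7 CPM to 0.769, 0.434 and 0.874 CPM (10.8-fold), and GATA2 fell 6.4-fold and LIN28A 3.11-fold. SALL4 fell 2.12-fold, a call lost to the fold limit without 8-cell replicate A (log2 fold change −0.87, adjusted p = 0.0065).

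Falling genes were ranked by fold change among those at 50 CPM or more whose groups did not overlap. The first 10 were ASTL, INPP1, CNTD2, WIF1, ACCSL, DCC, THEGL, GJA4, ZGLP1 and PDE6C. ASTL encodes ovastacin, the cortical granule protease that hardens the zona pellucida after fertilisation. It was at 108, 117 and 113 CPM in the 2-cell libraries and at 1.15, 2.06 and 1.86 CPM in the 8-cell libraries, a fall of 66.5-fold (adjusted p = 1.6e-08) and of 58.5-fold without 8-cell replicate A. ACCSL, an oocyte transcript related to plant ACC synthases, was at 3568, 4350 and 3631 against 56.8, 62 and 91.1 CPM. GJA4, the connexin of oocyte gap junctions, fell from 91, 84.1 and 104 CPM to 1.06, 1.85 and 2.62 CPM, and ZGLP1, a zinc finger factor of female germ cells, from 69.1, 66 and 80.4 CPM to 2.02, 0.869 and 1.42 CPM. All 10 genes fell by more than 40-fold. All 10 were also called without 8-cell replicate A, at log2 fold changes between −6.18 for CNTD2 and −5.22 for PDE6C. Their choice by large fold and groups without overlap made that call likely.

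The largest losses in CPM came from PAIP1, BTG4, PTTG1, AURKA and BMP15. PAIP1, a poly(A)-binding protein partner in translation, was at 17236, 14203 and 9552 CPM in 2-cell and 456, 598 and 895 CPM in 8-cell embryos (21-fold lower). BTG4, the adaptor that recruits the CCR4-NOT deadenylase to maternal mRNA, was at 12129, 12362 and 11946 against 1212, 1645 and 2358 CPM (6.99-fold lower). AURKA, a mitotic spindle kinase, fell 9.74-fold and PTTG1 (securin) 6.27-fold. BMP15, a growth factor of the oocyte, fell from 4736, 4296 and 4054 CPM to 198, 339 and 476 CPM. The lowest 2-cell library lay above the highest 8-cell library for each, and without 8-cell replicate A the falls were 18.8-fold for PAIP1, 6.22-fold for BTG4, 5.65-fold for PTTG1, 8.43-fold for AURKA and 11-fold for BMP15. PAIP1, BTG4, ACTG2, RARRES2, WIF1, DCC, THEGL and the 4 mitochondrial genes overlap a neighbouring gene in RefSeq's annotation, and whether the counting used strand is not given in the sources used here.

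As a class, stored oocyte transcripts fell together. Of 61 listed oocyte genes 47 were tested: 1 rose, 40 fell and 6 did not pass, with a median log2 fold change of −3.69, and the counts without 8-cell replicate A were 1 and 40 of 47. The tested genes summed to 46764, 46175 and 45361 CPM in the 2-cell libraries and to 7475, 8684 and 8593 CPM in the 8-cell libraries. Among zona pellucida genes, ZP2 fell 43.2-fold, ZP3 29.3-fold and ZP4 45.3-fold. GDF9, the partner of BMP15, fell from a mean of 1757 to 76.1 CPM, and the transcription factors FIGLA and NOBOX from 30.4 to 0.778 and 22.6 to 0.621 CPM. Of the subcortical maternal complex, NLRP5 fell 24-fold, TLE6 30.8-fold, OOEP 11.8-fold and KHDC3L 27.5-fold, and PADI6 18.7-fold. The importin KPNA7 fell 44.6-fold and the oocyte linker histone gene H1FOO 27.2-fold.

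A few oocyte genes did not follow. CCNB1, cyclin B1, was at 1868, 1893 and 2220 CPM in the 2-cell and 1111, 1702 and 1296 CPM in the 8-cell libraries (adjusted p = 0.058), while CCNB2 fell 4.75-fold and CCNB3 11.2-fold. UCHL1, a deubiquitinase of oocytes and neurons, rose from 434, 271 and 389 CPM to 3065, 1740 and 1228 CPM. It was highest in 8-cell replicate A, and its rise changed from 5.51-fold to 3.97-fold without that library.

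Genes that clear maternal mRNA moved both ways. Of 45 tested, 13 rose, 11 fell and 21 did not pass. That is 28.9% and 24.4% called in the 2 directions, against 35.7% and 30.7% of all tested genes. The median log2 fold change of −0.10 turned to 0.05 without 8-cell replicate A. Besides BTG4, the poly(A)-specific ribonuclease PARN fell 6.68-fold and NANOS1 13.2-fold, and the CCR4-NOT members CNOT3 4.27-fold, CNOT4 3.36-fold and CNOT6L 2.3-fold. Other members rose, with BTG3 going from a mean of 0.278 to 128 CPM, BTG1 from 9.17 to 367 CPM and the m6A reader YTHDF2 from 22 to 305 CPM. TUT7, a uridyltransferase that tags short poly(A) tails, was at 262, 256 and 179.9 against 993, 1890 and 1537 CPM (6.33-fold higher; 7.18-fold without 8-cell replicate A). CNOT6L fell while its paralogue CNOT6 rose 2.61-fold.

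Of 52 genes of RNA polymerase II and its general factors tested, 21 rose, 11 fell and 20 did not pass, with 40.4% rising against 35.7% of all genes (median log2 fold change 0.38). POLR2L and POLR2F, small subunits shared between polymerases, rose 65.4-fold and 11-fold, the second largest subunit POLR2B 6.21-fold, and POLR1C, shared by polymerases I and III, from 0.164, 0.266 and 0.166 to 161, 223 and 202 CPM. The largest subunit POLR2A was at a mean of 22.7 and 37.7 CPM (adjusted p = 0.046, under the fold limit). Genes of transcript elongation and its control parted. The factors ELL2 and SUPT4H1 rose 60.3-fold and 102-fold and ELL fell 9.8-fold, while HEXIM1, an inhibitor of elongation, rose 38.1-fold. The TFIIH kinase CDK7 fell 3.16-fold with its partners MNAT1 (2.52-fold) and CCNH (2.15-fold). All these calls stood without 8-cell replicate A.

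Of 55 spliceosome genes tested, 24 rose, 9 fell and 22 did not pass (median log2 fold change 0.72). Of serine/arginine-rich splicing factors, SRSF3 rose from 40.8, 41.4 and 37.5 CPM to 1595, 1658 and 1552 CPM, SRSF6 17.5-fold and SRSF2 12.2-fold, while SRSF4, SRSF9 and SRSF10 did not pass. The core Sm protein genes SNRPB and SNRPD2 rose 19-fold and 20.1-fold. Falling members included CDC5L (4.8-fold) and U2AF2 (4.46-fold), the large subunit of the factor that reads the 3′ splice site, while its small subunit U2AF1 rose 2.32-fold. These calls stood without 8-cell replicate A, whereas the fall of SNRPF was lost to the fold limit (log2 fold change −0.75, adjusted p = 0.043).

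Genes of the cytosolic ribosome rose almost without exception. Of 82 cytosolic ribosomal protein genes tested, 81 rose, 0 fell and 1 did not pass, the exception being RPL26L1 (266, 250.4 and 359 against 335, 676 and 424 CPM, adjusted p = 0.036, under the fold limit), and the same count rose without 8-cell replicate A. The median log2 fold change was 4.12 and the rising genes ran from 1.04 for RPL7A to 7.97 for RPL38. They took between 0.5% and 0.582% of the counts in the 2-cell libraries and 4.46%, 6.21% and 5.33% in 8-cell replicates A, B and C. In oocytes their share was 1.29% to 1.8% at GV and 0.747% to 1.17% at MII, above that of the 2-cell libraries. RPS19 rose from 4.42, 3.64 and 5.88 CPM to 586, 919.8 and 728 CPM and RPL5 from 393, 329.8 and 298 CPM to 1562, 2301 and 1759 CPM, so that genes of 1 particle differed widely in fold change. Ribosomal protein genes have many processed copies in mammalian genomes, and reads of such copies cannot be told apart from those of the genes here.

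Factors of ribosome assembly in the nucleolus moved less. Of 85 tested, 36 rose, 12 fell and 37 did not pass (median 0.79). Of the box C/D particle, FBL (fibrillarin) rose 4.45-fold, NOP56 3.36-fold and NOP58 4.32-fold. In the box H/ACA particle NHP2 rose 9.91-fold and NOP10 11.7-fold but DKC1, the pseudouridine synthase, fell 5.1-fold and GAR1 was at a mean of 55.7 and 59.6 CPM (adjusted p = 0.77). NAT10, an RNA acetyltransferase, fell 8.12-fold. Among 58 translation factors tested, 38 rose, 5 fell and 15 did not pass (median 1.79).

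EIF1AX, the start codon scanning factor, rose from 79.3, 57.7 and 56.3 CPM to 705, 1212 and 991 CPM, EEF1A1, the main elongation factor, from 844, 846 and 487 CPM to 3755, 2764 and 2923 CPM, and ETF1, which ends translation, 51.7-fold. Oocyte forms went the other way: EIF4E1B, the oocyte cap-binding protein, fell 7.15-fold and PABPC1L, the oocyte poly(A)-binding protein, 15.1-fold, while the somatic PABPC1 rose from 60.3, 56.9 and 48.4 CPM to 878, 1194 and 1021 CPM. EIF4E was at 1573, 1795 and 1581 against 1136, 1377 and 1283 CPM (adjusted p = 0.13). The genes of these exchanges were called in the same direction without 8-cell replicate A, at 19.6-fold higher for PABPC1, 11.8-fold lower for PABPC1L and 5.81-fold lower for EIF4E1B.

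Respiration genes of both genomes rose. All 13 protein genes of the mitochondrial genome rose (median log2 fold change 2.52, from 1.72 for COX1 to 3.75 for ND2), also without 8-cell replicate A. They took between 1% and 1.31% of the counts in 2-cell libraries and 4.4%, 5.63% and 5.6% in 8-cell replicates A, B and C. Leaving their counts out of the scaling gave 4287 rising and 3797 falling genes. Of 78 nuclear genes of the respiratory chain tested, 64 rose, 1 fell and 13 did not pass (median 2.70). NDUFA4 rose from 45, 65.4 and 74.4 CPM to 1072, 2005 and 1350 CPM and the complex III subunit UQCR11 83.6-fold, whereas COX6B2, the testis form of a cytochrome oxidase subunit, fell 9.38-fold and NDUFS1 was at a mean of 164 and 167 CPM. Of 77 mitochondrial ribosomal protein genes tested, 45 rose, 3 fell and 29 did not pass (median 1.29).

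Of 42 genes of glycolysis and the citrate cycle tested, 30 rose, 4 fell and 8 did not pass (median 1.84). PGK1 rose from 32.4, 20.2 and 25.1 CPM to 1964, 940.1 and 1070 CPM, TPI1 from 16.8, 19.7 and 15.7 CPM to 1237, 413 and 547 CPM, and IDH2, the mitochondrial NADP-linked isocitrate dehydrogenase, from 0.655, 0.533 and 0.0828 CPM to 34.3, 25.6 and 45.6 CPM. LDHC, the germ cell lactate dehydrogenase, fell 28.4-fold, LDHB rose 8.67-fold and LDHA was at 2148, 1994 and 1995 CPM in 2-cell and 3904, 1083 and 1866 CPM in 8-cell libraries, where the highest value was that of replicate A. The list leaned on that library: its tested genes summed to 24365, 10867 and 13423 CPM in 8-cell replicates A, B and C. GAPDH was at 5621, 1432 and 2116 CPM there, a rise of 6.12-fold that became 3.46-fold without 8-cell replicate A. Without it 28 genes of the list rose, and calls lost included those of GPI and CS (log2 fold changes 0.93 and −0.99).

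Genes of the proteasome, which degrades ubiquitin-tagged proteins, mostly rose. Of 39 proteasome genes tested, 26 rose, 4 fell and 9 did not pass (median log2 fold change 1.40), and 24 rose without 8-cell replicate A. The core particle genes PSMA1 and PSMA2 rose from 1.39, 0.799 and 2.07 CPM to 947, 1268 and 1200 CPM and from 2.13, 3.02 and 2.73 CPM to 918, 1093 and 918 CPM, with the 8-cell libraries close to each other. PSMA5 of the same ring fell 2.42-fold and the regulatory subunit PSMD1 2.82-fold. Of 46 chaperone genes tested, 15 rose, 7 fell and 24 did not pass (median 0.38). That is 32.6% rising and 15.2% falling, against 35.7% and 30.7% of all tested genes. CCT6A, a subunit of the chaperonin that folds actin and tubulin, rose from 0.409, 0.621 and 0.745 CPM to 479, 429 and 466 CPM. CCT4 and TCP1 of the same ring also rose, at log2 fold changes of 3.11 and 1.59. CCT3, CCT5, CCT7 and CCT8 passed in neither fit, and CCT2 fell only without 8-cell replicate A. HSPA5 (BiP) rose 7.95-fold, DNAJB9 from 0, 0.266 and 0.0828 CPM to 154, 236 and 199.9 CPM, and HSF2 33.5-fold, while HSF1 fell 3.76-fold.

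**Figure D3:**
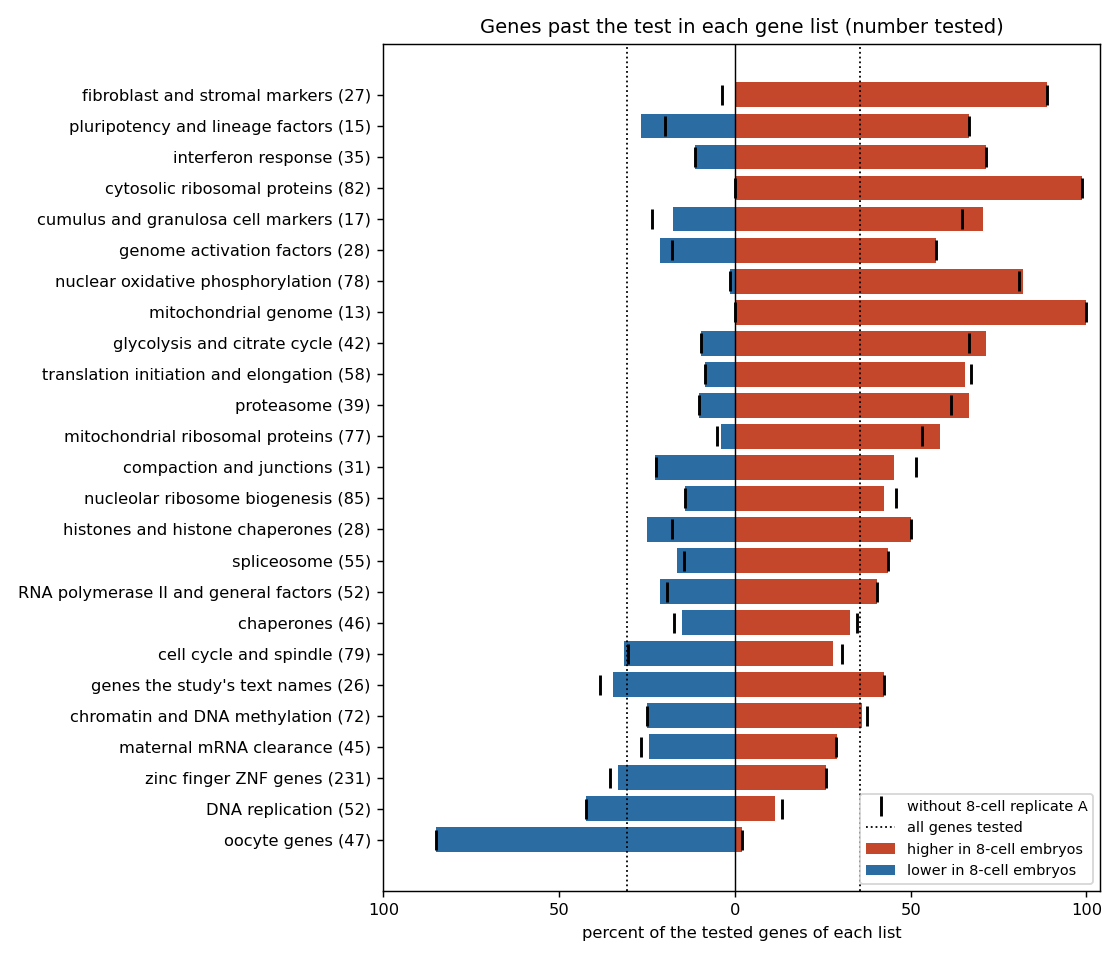
Percent of the tested genes in each gene list that rose (right, red) or fell (left, blue) in 8-cell embryos, with the number tested in parentheses, ticks for the same percent without 8-cell replicate A, and dotted lines at the background of all genes, 35.7% and 30.7%. Ribosomal protein, mitochondrial genome, stromal and respiratory chain lists lie furthest right and oocyte genes furthest left.

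Chromatin genes moved both ways, within enzyme families too. Of 72 tested, 26 rose, 18 fell and 28 did not pass. The rising 36.1% and falling 25% lie near the 35.7% and 30.7% of all tested genes. The median log2 fold change of 0.12 turned to −0.03 with library totals alone. For DNA methylation, DNMT1, the maintenance enzyme, fell from 507, 537 and 392 CPM to 84.8, 65.9 and 81 CPM and its partner UHRF1 13.6-fold, DNMT3B fell 11.2-fold, and DNMT3A was at a mean of 7.86 and 8.18 CPM (adjusted p = 0.9). For demethylation, TET3, the form of oocytes and zygotes, fell 4.52-fold while TET1 rose from 0.737, 0.799 and 1.08 CPM to 122, 295 and 259 CPM and TDG 29.6-fold. TET2 did not pass. Each of these calls stood without 8-cell replicate A.

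Among histone modifiers, KDM6A and KDM5B, which remove methyl groups from H3K27 and H3K4, rose 34.2-fold and 14.4-fold, and SETD2, which methylates H3K36, 18.9-fold. Of Polycomb complex 2, EED rose 5.81-fold and SUZ12 4.77-fold, and EZH2 was at a mean of 107 and 92.1 CPM (adjusted p = 0.48). The H3K9 methyltransferases SUV39H1, SUV39H2, SETDB1, EHMT1 and EHMT2 fell between 2.45-fold for EHMT2 and 9.21-fold for SUV39H2, whereas SETDB2, of the same group, rose 3.98-fold. KAT2A, an acetyltransferase, fell 9.1-fold and its paralogue KAT2B rose 21.1-fold. CBX3, a heterochromatin protein 1 form, rose from 2.21, 2.57 and 2.15 CPM to 225, 218 and 224 CPM.

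Of 28 histone and histone chaperone genes tested, 14 rose, 7 fell and 7 did not pass, with 14 and 5 without 8-cell replicate A. H2AFZ, the variant H2A.Z, was at 3.85, 2.4 and 6.46 CPM in 2-cell and 2711, 4268 and 2744 CPM in 8-cell libraries (761-fold; 804-fold without 8-cell replicate A). The H3.3 genes H3F3A and H3F3B rose 6.09-fold and 3.17-fold. The oocyte chaperone NPM2 fell 11.6-fold and ASF1B 6.55-fold, while NPM1 rose 2.04-fold and SET 5.82-fold. The falls of SLBP, the stem-loop binding protein, and ASF1A were lost without 8-cell replicate A (log2 fold changes −0.95 and −0.97). Histone genes are near-identical copies, as are H3F3A and H3F3B in part, and the counts may be split between them. Replication-type histone mRNA also largely lacks the poly(A) tail on which this kind of library preparation primes.

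Cell cycle genes moved both ways: of 79 tested, 22 rose, 25 fell and 32 did not pass. That is 27.8% rising and 31.6% falling, against 35.7% and 30.7% of all tested genes. Among G1 cyclins, CCNE1 rose from a mean of 10.2 to 144 CPM, CCNE2 14-fold and CCND2 from 0.0572 to 21.6 CPM, as did WEE1, from 0.503 to 27.3 CPM, while its oocyte form WEE2 fell from 1174 to 48.4 CPM. Of genes used in mitosis, CENPF fell 6.87-fold, PLK1 5.03-fold and CDC25C 4.69-fold. Others rose, with SPC24, of the kinetochore, at 8.14-fold, the checkpoint gene MAD2L1 at 3.91-fold, CENPA at 3.49-fold, CDK1 at 2.94-fold and the spindle motor KIF11 at 2.84-fold. Of 52 DNA replication genes tested, 6 rose, 22 fell and 24 did not pass, with 42.3% falling against 30.7% of all genes (median log2 fold change −0.74), and 7 and 22 did so without 8-cell replicate A. The ligase LIG1 fell from 493, 439.9 and 644 CPM to 31, 38 and 67.1 CPM, the origin recognition genes ORC2, ORC3 and ORC5 5.62-fold, 4.51-fold and 11.5-fold, and MCM5 4.14-fold. RRM2 rose 3.43-fold and FEN1 3.29-fold, and PCNA was at 862, 984 and 918 against 1070, 1410 and 1062 CPM (adjusted p = 0.17).

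Genes for compaction and cell junctions, which the embryo uses after this stage, rose in 14 and fell in 7 of 31 tested (median log2 fold change 0.87). The desmosomal DSC2 had 0 counts in the 2-cell libraries and 16.1, 14.1 and 22.8 CPM in the 8-cell libraries, at least 209-fold higher, also called without 8-cell replicate A. CLDN6, a claudin of tight junctions, rose from 0.164, 0.178 and 0.331 CPM to 35.9, 64.1 and 98.4 CPM, F11R 31.9-fold and the water channel AQP11 96.7-fold. OCLN (occludin) fell 10.5-fold, the microvillus protein EZR 9.49-fold and CTNNB1 (β-catenin) 2.07-fold. CDH1 (E-cadherin) was at 175, 159 and 99.2 CPM in 2-cell and 170.2, 303 and 322 CPM in 8-cell libraries and passed only without 8-cell replicate A (log2 fold change 0.87 with it and 1.07 without it).

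Zinc finger genes with ZNF symbols made up the largest list: of 231 tested, 60 rose, 77 fell and 94 did not pass (median log2 fold change −0.44). That is 26% rising and 33.3% falling, against 35.7% and 30.7% of all tested genes. ZNF41 had 0 counts in 2-cell embryos and 16.6, 26.6 and 7.32 CPM in 8-cell embryos, at least 199.8-fold higher. ZNF394 rose 53.8-fold and ZNF131 25.3-fold, while ZNF215 fell from 802, 817 and 531 CPM to 30.9, 67 and 74.5 CPM and ZNF529 fell 10.1-fold.

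Interferon-stimulated genes, which block viral replication, rose by large factors. Of 35 tested, 25 rose, 4 fell and 6 did not pass (median log2 fold change 5.35), and the same counts of 25 and 4 passed without 8-cell replicate A. MX1, an antiviral GTPase, had 1 count in the 2-cell libraries and 274, 139.5 and 164 CPM in the 8-cell libraries, a ratio of 6970 (95% exact Poisson interval 1251 to 275282). ISG15, a ubiquitin-like modifier, was at 0.0819, 0 and 0.0828 against 138, 150.5 and 182 CPM and the membrane protein gene IFITM3 at 0.409, 0.0888 and 0.497 against 994, 473 and 653 CPM. IFIH1, a sensor of double-stranded RNA, had 0 counts in 2-cell embryos and was at least 277-fold higher in 8-cell embryos. All 3 8-cell libraries held these transcripts at levels far above the 2-cell libraries.

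Not every interferon gene took part. The sensor DHX58 fell 9.09-fold, EPSTI1 5.38-fold, IFIT3 5.69-fold and STAT2 2.24-fold, and IRF1, IRF7 and OAS2 did not pass. OAS1X, OAS1Y and OAS1Z, which all rose, are similar copies between which reads may be split. The tested genes summed to 462, 463 and 487 CPM in the 2-cell libraries and to 6830, 3926 and 4011 CPM in 8-cell replicates A, B and C. They were thus highest in the library with the most stromal RNA, and the part of that RNA in the result was not tested.

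Connective tissue transcripts made up part of the change. Of 27 fibroblast and stromal markers tested, 24 rose, 0 fell and 3 did not pass (median log2 fold change 8.03), and 24 rose and 1 fell (FBN1) without 8-cell replicate A, at a median of 7.10. LUM, the matrix proteoglycan lumican, was at 0.901, 0.444 and 1.24 CPM in 2-cell and 9093, 2047 and 1358 CPM in 8-cell libraries, SPARC at 1.47, 1.06 and 1.99 against 4563, 1102 and 1081 CPM, and DCN (decorin) at 0.0819, 0.533 and 0.0828 against 264, 45.2 and 64.5 CPM. COL3A1, a defining fibroblast collagen, had 0 counts in the 2-cell libraries and 155, 19.1 and 24.5 CPM in the 8-cell libraries, at least 828-fold higher. Replicate A was the highest 8-cell library for 22 of the 24 rising markers, and B and C still stood above every 2-cell library. LUM rose 4735-fold with 8-cell replicate A and 1888-fold without it. Of the 31 markers in the table, 9 or 10 were at 0 in each 2-cell library and 0 in each 8-cell library. Per the methods, the embryos were rinsed and checked to carry no other cells before they were frozen. RNA of other cells in a pool and the embryo's own expression cannot be told apart in these data, and their part in the other results was not tested.

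Of 17 cumulus and granulosa cell markers tested, 12 rose, 3 fell and 2 did not pass, and 11 and 4 did so without 8-cell replicate A. CYP11A1, which starts steroid synthesis, rose from 0.0819, 0.178 and 0 CPM to 164, 61.9 and 77 CPM and TNFAIP6, a protein of the expanded cumulus matrix, from 0.164, 0.178 and 0.166 CPM to 26.8, 35.8 and 43.6 CPM. STAR fell 5.16-fold, HAS2 3.97-fold and PTGS2 5.4-fold. The tested list summed to 552, 605 and 590.0 CPM in 2-cell and 2637, 568 and 689 CPM in 8-cell libraries, and FOXL2, AMH and INHA, defining granulosa genes, were too low to be tested. Only 5 blood and 5 sperm markers were tested, of which 2 and 2 rose and 2 and 1 fell. The blood markers summed to at most 138 CPM in any of the 6 libraries. Among sperm markers the protamine genes PRM1, PRM2 and PRM3 were too low to be tested, and CRISP2, with 0 counts in 2-cell embryos, was at 12.1, 56.2 and 18.5 CPM in 8-cell embryos, at least 335-fold higher.

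**Figure D4:**
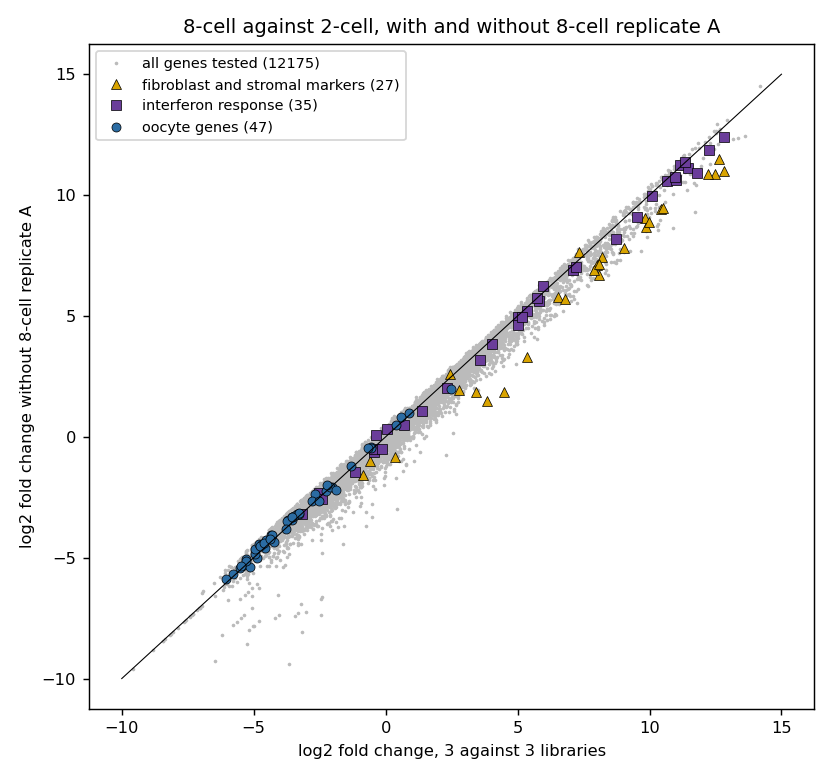
Log2 fold change of each tested gene with all 6 libraries (x axis) and without 8-cell replicate A (y axis), with a line of equal values. Most fibroblast and stromal markers (triangles) lie below the line, as for LUM, which goes from 12.21 to 10.88, and oocyte genes (circles) lie along it.

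Few calls rested on 8-cell replicate A. It exceeded both B and C by more than 3 times in 222 of the 4347 rising genes, whereas B did so over A and C in 12 genes and C over A and B in 6. These 222 genes, 17 of them on the stromal list, took 4.31% of the counts of A, 0.818% of B and 0.890% of C. Without A, 188 of the 222 were still called. In all, 211 rises and 120 falls lost their call, with median log2 fold changes of 1.27 and −1.11, and 210 of the 211 and all 120 kept their direction, the exception being CLU (1.45 with A, −0.04 without). The largest lost rises were DBNDD2 (2.66 with A, 0.95 without), HEG1 (2.65, 1.32), TNS3 (2.55, 1.45) and SCUBE3 (2.55, 0.17), named after their values were seen. All 30 genes named by size of change kept their call, which their choice by size made likely. Conversely, 235 rises and 417 falls were called only without A.

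Of 27 genes that the study's text names, 26 were tested: 11 rose, 9 fell and 6 did not pass. The study picked them from the gradient and whole-embryo libraries of this series, some together with protein data of other embryos, and their direction is not independent evidence. Besides NANOG, KLF17, MYC, TUT7 and ISG15, PLAT, the tissue plasminogen activator, rose from 1.23, 3.55 and 2.4 CPM to 1114, 298 and 262 CPM, and TAGLN, a smooth muscle protein on the stromal list, from 0.328, 0.0888 and 0.166 CPM to 411, 105 and 68.1 CPM. Both were highest in 8-cell replicate A and were called without it, at 114-fold and 407-fold. MYC was at 0.246, 0 and 0 CPM in the 2-cell and 14.3, 21.8 and 19.8 CPM in the 8-cell libraries. POLD4, a small subunit of DNA polymerase delta, had 0 counts in the 2-cell libraries and 7.98, 1.52 and 3.61 CPM in the 8-cell libraries, at least 53.6-fold higher. SUN1, of the nuclear envelope, fell 9.63-fold and MCM4, of the replicative helicase, 2.62-fold. TUBG1, XAB2, MMAB, LRWD1 and CST6 passed in neither fit, and WFS1 fell only without 8-cell replicate A.

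The other stages, whose libraries took no part in the call, were used to describe the levels of the called genes outside the comparison. On a scale common to the 18 transcriptomes, all 3 morula libraries lay above all 6 oocyte libraries in 2958 of the 4347 rising genes (68%) against 31.4% of all tested genes, and all 3 lay below them in 2800 of the 3740 falling genes (74.9%) against 32.2%. At the 2-cell stage rising genes took 12.3% to 12.9% of the counts, at the 8-cell stage 59.9% to 62.9% and in morulae 61.8% to 62.3%. Falling genes took 54.8% to 55.8%, 9.83% to 11.9% and 9.21% to 9.87%. The 2-cell and 8-cell shares come from the libraries that made the call, so the difference between them was set by it. The share of counts in these genes was similar at the 8-cell and morula stages. Of the rising genes, 1820 had their highest stage mean at the 8-cell stage, 1029 in morulae and 1333 in blastocysts.

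Single genes took different courses after the 8-cell stage. Mean levels in GV, MII, 2-cell, 8-cell, morula and blastocyst libraries were 0.14, 0.0704, 0.0258, 116, 182 and 439.9 CPM for TFAP2C, with its highest mean in blastocysts, and 0.141, 0.0409, 0.108, 306, 123 and 0.273 CPM for KLF17, which was highest at the 8-cell stage. ZFP42 (0.176, 0.146, 0.0259, 222, 744 and 30.7 CPM) and DPPA2 (0.422, 0.152, 0.106, 128, 407 and 12.8 CPM) were highest in morulae. NANOG (0, 0.0352, 0.0272, 189.5, 58 and 30.8 CPM) and IFI6 (0.123, 49.9, 0.184, 1317, 8.3 and 0.686 CPM) were highest at the 8-cell stage. POU5F1, not called between the stages compared here, reached its highest mean in morulae (20.1, 33.7, 26.5, 22.6, 387 and 144 CPM), and CDX2, which had fallen, had a blastocyst mean near that of the 2-cell stage (1.9, 4, 7.14, 0.597, 3.12 and 7.3 CPM). Of the 10 genes with the largest fold rise, POSTN, RARRES2 and VIM also had counts in MII oocytes. Their means were 0, 0.272 and 0.457 CPM in GV and 47.4, 81.6 and 13.75 CPM in MII oocytes. Apart from these and IFI6, no gene of that group had an MII mean above 4.19 CPM. The interferon list summed to 426 to 570 CPM in GV, 765 to 1274 CPM in MII and 426 to 458 CPM in 2-cell libraries. These means and sums are descriptions without a test.

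**Figure D5:**
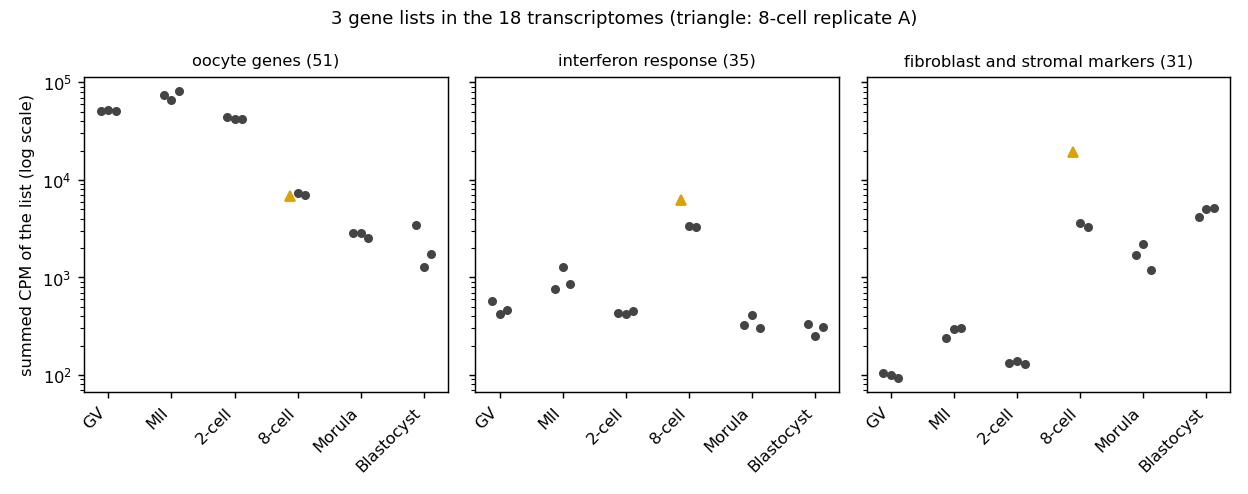
Summed CPM (log axis) of oocyte genes, interferon response genes and fibroblast and stromal markers in each of the 18 transcriptomes by stage, with 8-cell replicate A as a triangle. The 2-cell libraries hold 42524 to 44211 CPM of oocyte genes and the 8-cell libraries 6816 to 7435 CPM, while interferon genes are high at the 8-cell stage, and the stromal sum of 19288 CPM in 8-cell replicate A exceeds that of every other library.

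The heavy gradient fractions give a second set of 8-cell and 2-cell libraries, from 2 gradients per stage. Fractions 8 to 10, which hold mRNA bound by several ribosomes, were summed per gradient, and with 2 pools against 2 they were described without a test. Both 8-cell pools lay above both 2-cell pools in 2544 of the 4347 rising genes (58.5%) against 28.4% of all tested genes, and below them in 2888 of the 3740 falling genes (77.2%) against 37.4%. KLF17 was at 0.853 and 4.61 CPM in the 2-cell pools and 456 and 702 CPM in the 8-cell pools, NANOG at 0 and 0 against 187 and 136 CPM, and ASTL at 3278 and 3198 against 187 and 155 CPM. Of the 82 ribosomal protein genes tested, 81 had both 8-cell pools above both 2-cell pools, RPS4X being the exception. Of the 27 stromal markers tested, both 8-cell pools lay above both 2-cell pools in 19 and below them in 3. The markers in the table summed to 339 and 257 CPM in the 2-cell pools and to 2508 and 3522 CPM in the 8-cell pools. Among them, LUM was at 0 and 2.1 against 156 and 261 CPM and COL3A1 at 0 and 0 against 0.0953 and 34.1 CPM.

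In 282 rising genes both 8-cell pools lay below both 2-cell pools, and in 60 falling genes above them. Among the genes named above, UCHL1 rose in the transcriptome but had 939 and 1127 CPM in the 2-cell and a lower 720.1 and 783 CPM in the 8-cell pools. CDX2 fell in the transcriptome and was at 28.4 and 29.8 against 22.7 and 9.05 CPM in the pools. GATA6, which rose in the transcriptome, was at 0 and 0.125 CPM in the 2-cell and 189.8 and 207 CPM in the 8-cell pools. CPM of a pool and of a whole-embryo library are shares of different RNA populations, and their sizes are not compared.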

How the data were processed

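Whole-embryo RNA of the 2-cell and 8-cell stages (n = 3 pools each) had been amplified with an oligo(dT)-primed full-length kit and sequenced. Per the labels and methods, the authors quantified reads with Salmon (version not given in the sources used here) and deposited expected counts per gene symbol, not normalized. The submitters' processing notes name build UMD 3.1 whereas the methods name a later cattle assembly, and no coordinates are given. Of the deposited expected counts, 11.7% were not whole, and all were rounded. Transcript lengths, strand setting and multimapping rule were not used here.

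Genes passing filterByExpr were tested with edgeR 4.0.16 (R 4.3.3), by TMM scaling and the quasi-likelihood test, two-sided, with Benjamini-Hochberg adjustment over all 12175 genes. A call needed an adjusted p below 0.05 and a fold above 2. Fits were first tested on simulated data. Exact permutation of 3 against 3 libraries cannot give a p below 0.10 and was not used. Folds over a group at 0 use a floor of 3 counts over that group, and floors and intervals cover counting error only. No pair of libraries agreed within sampling noise. Named genes were the 10 largest fold changes in each direction at 50 CPM or more without overlap, the 5 largest differences in CPM in each direction, and genes of the lists. The members and the lists were chosen with earlier results of these data known. Stage means and marker sums by stage used TMM over 18 transcriptomes, and gradient pools TMM over 4 pools. Alternatives were the likelihood ratio test, DESeq2 1.42.0, other scalings, filters and fold limits, thinned counts, a replicate block and leaving out each library.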

Additional observations from a re-analysis of the deposited data

How the results depend on the processing

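The number of rising genes lay between 4069 (library totals without TMM) and 5046 (no filter on low counts), and that of falling genes between 3674 (DESeq2 Wald test) and 4175 (all 18 transcriptomes in 1 fit), against 4347 and 3740. Leaving out 1 library at a time gave 4317 to 4447 rising and 3654 to 4037 falling genes, the last without 8-cell replicate A. A fold limit of 4 left 3008 rising and 2278 falling genes. Rises were 53.8% of all calls with TMM and 50.3% with library totals, which moved the median log2 fold change of all genes from 0.097 to −0.057. With library totals, 3208 genes lay higher and 4929 lower in both 8-cell pools, against 3455 and 4555. All 30 genes named by size of change kept their direction and call under the alternatives with the fold limit of 2, while COX1 (3.29-fold) and UBB (2.44-fold) are under a limit of 4. Deviations of same-letter libraries from their group means correlated at 0.000916, 0.0382 and 0.0218. With 3 libraries a group, such values cannot show whether libraries of the same letter shared a batch. The fit with the replicate block called 4283 rising and 3786 falling genes. Amplified reads carry no molecular identifiers, and with 3 libraries a group, changes near the fold limit are the least firm, as the median log2 fold changes of 1.27 and −1.11 among calls lost without 8-cell replicate A show.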

Other observations

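Some genes were high at the 8-cell stage and in no other transcriptome. In 34 of the rising genes the lowest 8-cell library stood more than 10 times above the highest of the other 15 transcriptomes, at a mean of 20 CPM or more, a rule chosen after the values were seen. XCL1, a chemokine of lymphocytes, led them with 2147, 2231 and 2549 CPM in the 8-cell libraries and at most 1.66 CPM in any other transcriptome. It was about as high in 8-cell replicate A as in B and C. In 11 of the 34 genes replicate A exceeded both B and C by more than 3 times, against 222 of the 4347 rising genes. All 34 were called without replicate A. The rule made that call nearly certain, since it also sets B and C more than 10 times above every 2-cell library. Both 8-cell polysome pools lay above both 2-cell pools in 18 of the 34, against 58.5% of all rising genes and 28.4% of all tested genes.

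Genes that share the start of their symbol also moved unevenly, counted here without a test and after the values were seen. Of 35 tested genes with CEP symbols, which encode centrosome proteins, 20 fell, as did 18 of 31 kinesin genes (KIF) and 11 of 17 genes of cilia and flagella (CFAP). Of 18 collagen genes (COL), 12 rose, and of 18 cytochrome P450 genes (CYP), 12 rose. All tested genes fell in 30.7% and rose in 35.7%.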
